A study of Mus musculus with 9 samples.

Results

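The 55 genes described here encode proteins of the cytosolic ribosome, 32 of the large subunit and 23 of the small subunit, out of 22359 protein-coding genes in the GENCODE M1 annotation of the mouse mm9 build. They were taken as a list of names, whose rule uses no measured value, although earlier results of these data were known when it was chosen. In the annotation, 26 other cytosolic ribosomal protein genes are not on this list. Processed pseudogenes were left out. The measurement was chromatin immunoprecipitation sequencing (ChIP-seq) of UBTF, an HMG-box protein that keeps the ribosomal RNA genes (rDNA) open to RNA polymerase I, and the question put to it was whether UBTF was also called at the promoters of the genes for the protein part of the ribosome. Primary pre-B cells were sorted from bone marrow of C57BL/6 mice, by high B220, low IgM and low IgD per the labels, and the study's methods describe the mal cells as B220-positive, IgM-negative and IgD-negative. The methods give female mice for wt and prem and both sexes for mal. The 3 stages were wild type (wt) at 4 to 6 weeks of age, premalignant Eµ-Myc (prem) at 4 to 6 weeks and malignant Eµ-Myc (mal) at 10 to 20 weeks, once lymphoma had appeared. Eµ-Myc is a heterozygous transgene that drives the MYC oncogene from an immunoglobulin heavy chain enhancer, so its expression is limited to the B-cell lineage, and wt mice lack it. Each stage had 2 UBTF libraries, made with a rabbit antiserum to both UBTF isoforms in biological replicate experiments. The series has 9 samples, and its 3 inputs were not analysed here.

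Ribosomal protein genes are transcribed by RNA polymerase II, need output matched to that of the rDNA, and are well-known targets of MYC. Their promoters are compact, often lack a TATA box and tend to start within a run of pyrimidines. UBTF binds DNA through HMG boxes with little sequence preference and is best known at the rDNA, and it is also found at promoters transcribed by RNA polymerase II.

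The libraries were not alike. The lists held from 78113 peaks (prem 1) to 575674 peaks (prem 2), and peak lists carry no read counts, so depth is unknown. The narrowest called region was 240 to 260 bp in wt 1, wt 2 and prem 1 and 670 to 800 bp in prem 2, mal 1 and mal 2, so that wt and mal lie wholly in different sets and their difference cannot be told apart from that of the sets. The peak caller's score has no common scale between lists and was used only to rank peaks within a list. Among pre-B marker genes, 2 or 3 of 8 had a summit near a start in each library, none of 4 T-cell and none of 4 erythroid marker genes had one in any library, and 1 of 4 myeloid marker genes had one in wt 2 and in prem 2. These peaks do not measure expression and so do not check the identity of the cells.

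A gene was counted when a peak summit lay within 1 kb of the start of one of its protein-coding transcripts. In wt cells, 27 of the 55 ribosomal protein genes (49.1%) had such a summit in library 1 and 30 (54.5%) in library 2, against 35.3% and 44% of all protein-coding genes. In prem cells 9 (16.4%) and 13 (23.6%) did, against 21.3% and 31.3% of all protein-coding genes. In mal cells 37 (67.3%) and 22 (40%) did, against 46.2% and 38.4%. The ribosomal protein genes therefore lay above the background in all 4 wt and mal lists and below it in both prem lists, and in mal 2 the distance was small. The mean was 51.8% ± 3.86 in wt, 20.0% ± 5.14 in prem and 53.6% ± 19.3 in mal (SD, n = 2 libraries each), and the corresponding means of the other 22304 genes were 39.6%, 26.3% and 42.3%. The ranges of wt and prem did not overlap, nor did those of prem and mal, whereas both wt libraries lay between the 2 mal libraries. Among the other genes, too, the range of prem lay below those of wt and mal without overlap. The separation of prem was therefore not particular to the ribosomal protein genes.

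Relative to the other genes, the share of ribosomal protein genes was 13.8 and 10.6 percentage points higher in the wt libraries. It was lower in prem, by -4.96 and -7.70 points, and higher in mal, by 21.2 and 1.58 points. From wt to prem the share of ribosomal protein genes changed by -31.8 points and that of other genes by -13.3 points. From prem to mal the changes were 33.6 and 15.9 points, and from wt to mal 1.82 and 2.63 points. Within the narrow set of libraries, prem 1 lay -35.5 points from the wt mean (-18.3 points for other genes), and within the wide set the mal mean lay 30.0 points above prem 2 (10.9 points for other genes). The direction was thus the same within each set. No test was made of these shares, and an exact permutation test of 2 libraries against 2 cannot give a p below 0.33. The 95% exact binomial interval of the share, which covers counting error over genes alone, was 35.4 to 62.9% in wt 1, 40.6 to 68.0% in wt 2, 7.77 to 28.8% in prem 1, 13.2 to 37.0% in prem 2, 53.3 to 79.3% in mal 1 and 27.0 to 54.1% in mal 2. It held the value of the other genes in wt 2, prem 1, prem 2 and mal 2 and lay above it in wt 1 and mal 1.

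**Figure D1:**
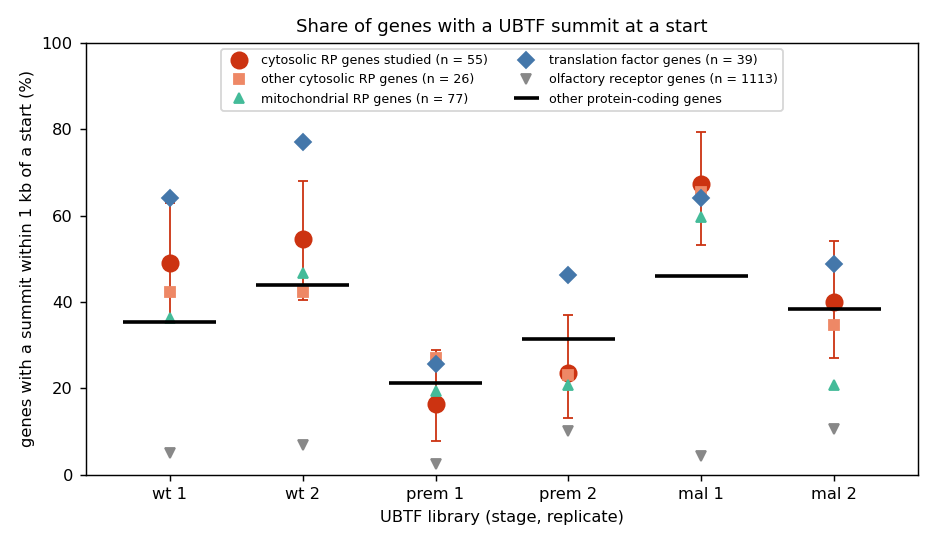
Percentage of genes with a UBTF summit within 1 kb of a start (vertical axis) in each of the 6 UBTF libraries (horizontal axis, stage and replicate). Circles are the 55 ribosomal protein genes with 95% exact binomial intervals, black bars the other protein-coding genes, and other symbols the comparison lists. The circles lie above the black bars in wt and mal (49.1, 54.5, 67.3 and 40%) and below them in prem (16.4 and 23.6%).

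The summits that made up these shares were mostly weak. Genes with a summit were ranked within each library by the score of their best summit, from 0 to 100, the highest score being 100. The median percentile of the ribosomal protein genes that had a summit was 26.1 and 33.3 in wt, 48.3 and 13.3 in prem and 37.5 and 25 in mal, whereas the median over other genes is close to 50 by construction. Above the median gene stood 7 of 27 and 10 of 30 of those with a summit in wt, 4 of 9 and 5 of 13 in prem, and 12 of 37 and 3 of 22 in mal. The mean of the library medians was 29.7 ± 5.13 in wt, 30.8 ± 24.7 in prem and 31.2 ± 8.86 in mal (SD, n = 2), so the stages did not differ in rank beyond the spread of their libraries.

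The excess in wt and mal depended on how far down each list was read. When every list was shortened to its best 78074 peaks, the length of the shortest one, the ribosomal protein genes lay below the other genes in all 6 libraries. The shares of ribosomal protein genes were then 23.6 and 10.9% in wt, 16.4 and 3.64% in prem, and 16.4 and 1.82% in mal. Those of other genes were 25.3 and 20.9% in wt, 21.3 and 7.40% in prem, and 18.3 and 12.7% in mal. The mean shares were then 17.3% in wt, 10.0% in prem and 9.09% in mal, so that mal no longer lay above prem, and the excess in wt and mal rested on the lower part of the lists. The shares did not run in the order of list length, since prem 2, the longest list, called 13 of these genes and wt 1, with 116180 peaks, called 27. Whether list length set the differences between stages was not tested. Among the best 5000 peaks, Rps29 stood in wt 1 and prem 1 and Rpl37 in mal 1, and no other ribosomal protein gene stood in any list.

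**Figure D2:**
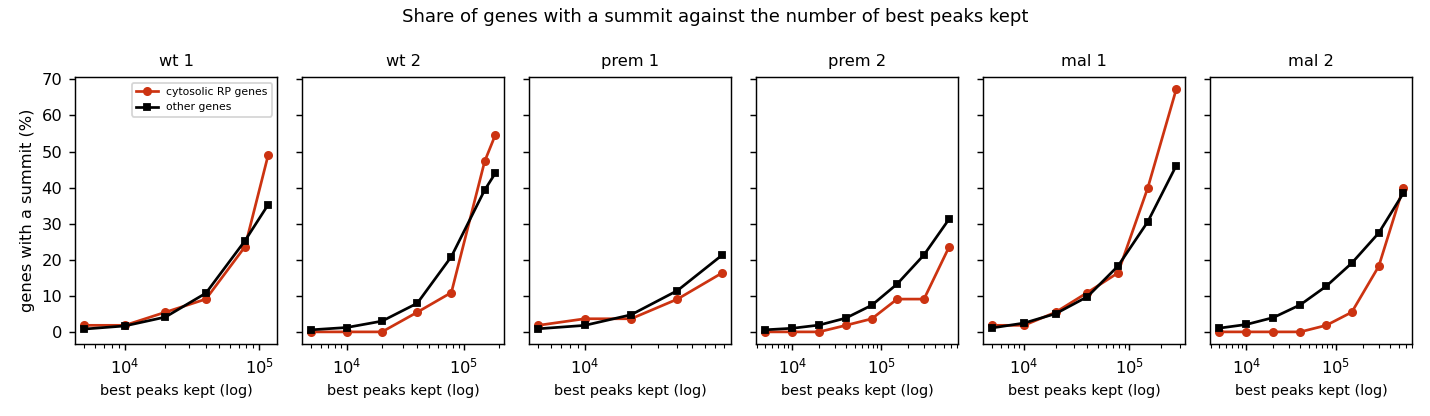
Percentage of genes with a summit within 1 kb of a start (vertical axis) against the number of best-scored peaks kept (horizontal axis, log scale), 1 panel for each UBTF library. Circles are the 55 ribosomal protein genes and squares the other protein-coding genes; at 78074 peaks the circles lie below the squares in all 6 panels, and at the full list they lie above in wt and mal and below in prem.

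The genes differed widely in how often they were called. Of the 55, 7 had a summit in no list, 8 in 1, 13 in 2, 13 in 3, 8 in 4, 3 in 5 and 3 in all 6. A summit in all 6 lists was found at 5.45% of them, against 9.58% of all protein-coding genes. At least 1 summit was therefore common, with 12.7% of the ribosomal protein genes in no list against 32.3% of all genes, but a summit in 4 or more lists (14 genes, 25.5%) was near the background of 28.7%. The 2 replicates of a stage called partly different genes. In wt both called 18 of the 39 genes that either called (46.2%, other genes 58.3%), in prem 3 of 19 (15.8%, other genes 32.3%) and in mal 18 of 41 (43.9%, other genes 46.0%). Where both replicates called a gene, the median distance between their best summits was 68.5 bp in wt, 76 bp in prem and 416.5 bp in mal, against 82, 160 and 189 bp for other genes.

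**Figure D3:**
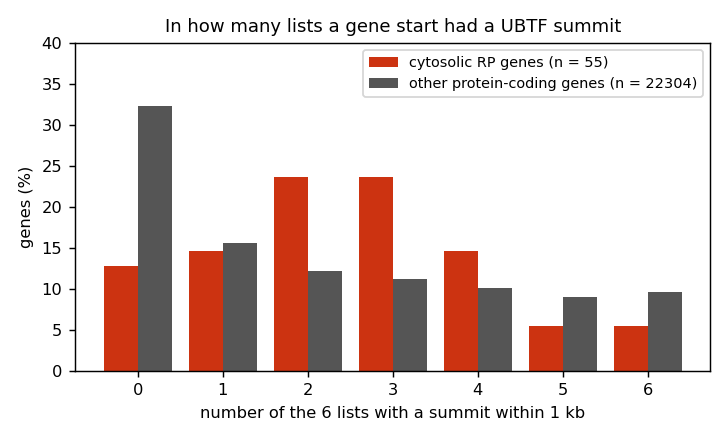
Percentage of genes (vertical axis) by the number of the 6 lists in which they had a summit within 1 kb of a start (horizontal axis), for the 55 ribosomal protein genes and the 22304 other protein-coding genes. Ribosomal protein genes are fewest at 5 and 6 lists (5.45% each) and other genes are most frequent at 0 lists (32.3%).

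The 3 genes called in every list were Rpl14, Rpl24 and Rps29, and Rpl37 had the highest ranks among those called in 4. The 101 bases centred on the median summit are given here for Rpl14, Rpl37 and Rpl24, because a summit recurred there in 4 or more lists. They are read 5′ to 3′ on the strand of the gene from the mm9 sequence (NCBIM37), with CpG dinucleotides, the feature that marks promoter islands, in capitals. The windows are chr9:120480792-120480892 (plus strand) for Rpl14, inside its first intron, chr15:5066416-5066516 (plus strand) for Rpl37, upstream of the gene, and chr16:55974652-55974752 (plus strand) for Rpl24, in an intron of some of its annotated transcripts and outside the others.
Rpl14: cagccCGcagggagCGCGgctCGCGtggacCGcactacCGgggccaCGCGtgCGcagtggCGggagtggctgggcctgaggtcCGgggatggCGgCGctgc
Rpl37: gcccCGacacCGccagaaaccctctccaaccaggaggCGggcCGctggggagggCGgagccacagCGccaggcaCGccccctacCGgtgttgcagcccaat
Rpl24: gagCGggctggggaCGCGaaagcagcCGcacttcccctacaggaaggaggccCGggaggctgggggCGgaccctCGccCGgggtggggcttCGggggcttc
The GC content of these windows was 78.2% for Rpl14, 72.3% for Rpl37 and 75.2% for Rpl24, with 14, 8 and 9 CpGs.

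Rpl14 (chr9:120480632-120483770), which encodes a large-subunit protein, was the most evenly called. Its percentile was 88.0 and 81.8 in wt, 51.4 and 90.5 in prem, and 93.1 and 58.6 in mal, with all 3 stages overlapping. Its summits lay 138 to 220 bp into the gene in all 6 libraries and spanned 82 bp.

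Rps29 (chr12:70258709-70260173), which encodes a zinc-binding protein of the small subunit, had percentiles of 98.7 and 84.9 in wt, 99.1 and 2.88 in prem, and 71.5 and 54.0 in mal. The prem libraries thus held both the highest and the lowest value. Its summits lay 130 to 158 bp upstream of the start and spanned 28 bp, the tightest of the 3. In all 6 libraries they fell inside another annotated record, and a summit at Rps29 cannot be told apart from one at that record.

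Rpl24 (chr16:55966388-56009026), which encodes a large-subunit protein, had percentiles of 93.5 and 85.7 in wt, 48.3 and 13.3 in prem, and 58.1 and 74.0 in mal. The wt values were the highest and the prem values the lowest, without overlap between the stages. These summits belonged to the last of its 4 annotated starts, 7529 bp downstream of the first, and the gene next to Rpl24 in the RefSeq order is Zbtb11, a zinc finger gene. At the first start, a summit was found in both wt and both mal lists and in neither prem list, and it was weaker than at the last start in each of those 4 lists. In wt 1, for example, it ranked 60859 among all peaks, against 13125 at the last start.

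Rpl37 (chr15:5066613-5069140), which encodes a large-subunit protein, had percentiles of 95.0 and 92.6 in wt, 95.6 in prem 1 and 99.2 in mal 1, and no summit in prem 2 or mal 2. Its 4 summits lay 126 to 165 bp upstream of the start and spanned 39 bp. These were high ranks in the lists that held it, while the 2 longest lists did not hold it at all.

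The 3 genes called in 5 lists were Rpl7, Rps10 and Rps19, and for each of them the missing list was prem 1, the shortest. Rpl7 had percentiles of 18.4 and 77.0 in wt, 81.6 in prem 2, and 56.4 and 39.8 in mal, with summits 440 to 594 bp upstream. Rps10 had percentiles of 42.4 and 51.2 in wt, 62.6 in prem 2, and 70.8 and 25.3 in mal. Rps19, mutated in Diamond-Blackfan anaemia, was weaker, at 4.01 and 35 in wt, 30.5 in prem 2, and 13.6 and 42.7 in mal. Its summits all lay within 59 bp of a start. The other 7 genes called in 4 lists were Rpl19, Rpl23, Rpl26, Rpl32, Rplp0, Rplp1 and Rps15, and Rps15 in mal 1 (90.1) and Rpl26 in mal 1 (80.3) had the highest percentiles among them.

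**Figure D4:**
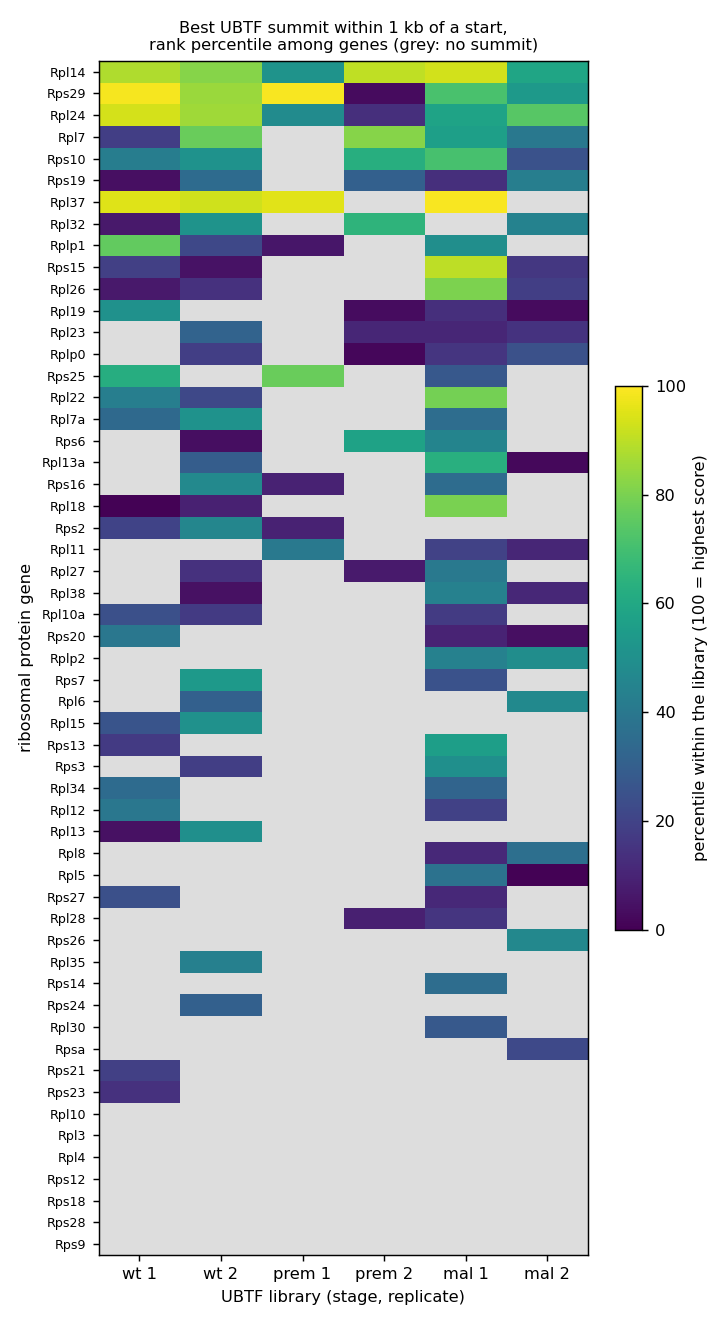
Rank percentile of the best UBTF summit within 1 kb of a start for each of the 55 ribosomal protein genes (rows) in each of the 6 UBTF libraries (columns); 100 is the highest score among genes of that library and grey means no summit. Rows are ordered by number of lists and then by mean percentile; the prem columns hold 9 and 13 coloured cells, and the 7 bottom rows are grey throughout.

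The genes of the P stalk, which recruits elongation factors to the large subunit, differed from each other. Rplp1 was called in wt (75.9 and 21.6), prem 1 (6.05) and mal 1 (49.6). Rplp0 was called in wt 2 (18.6), prem 2 (1.78) and both mal libraries (15.4 and 24.6). Rplp2 was called in both mal libraries, at 43.9 and 49.0, and in no other list. Rpl5 and Rpl11, which bind the 5S ribosomal RNA and can bind MDM2 to stabilise p53, were also called in both mal libraries and in neither wt library. Rpl5 had percentiles of 37.5 and 0.669 in mal, and Rpl11 had 19.8 and 10.6, with 40.6 in prem 1 as well. Rps6, the substrate of the S6 kinases, was called in wt 2 (3.73), prem 2 (57.7) and mal 1 (45). Rps3, at the mRNA entry site, was called in wt 2 (18.6) and mal 1 (49.8), and Rpsa, also known as the laminin receptor, in mal 2 alone (21.9). In these genes the replicates of a stage often disagreed on whether there was a summit at all.

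Rpl3, which lies close to the peptidyl transferase centre, was in no list, and its nearest summit was 1631 bp away at the least. The others in no list were Rpl4, Rpl10, Rps9, Rps12, Rps18 and Rps28, with nearest summits from 1504 bp (Rps9) to 6574 bp (Rps28) away at the least. The 8 genes called in 1 list were Rps21 and Rps23 in wt 1, Rpl35 and Rps24 in wt 2, Rpl30 and Rps14 in mal 1, and Rps26 and Rpsa in mal 2. Their percentiles ran from 14.2 (Rps23) to 46.5 (Rps26), all below the median gene of their library. The 13 genes called in 2 lists were Rpl5, Rpl6, Rpl8, Rpl12, Rpl13, Rpl15, Rpl28, Rpl34, Rplp2, Rps3, Rps7, Rps13 and Rps27. Their highest percentile was 56.2, for Rps13 in mal 1. The 13 genes called in 3 lists were Rpl7a, Rpl10a, Rpl11, Rpl13a, Rpl18, Rpl22, Rpl27, Rpl38, Rps2, Rps6, Rps16, Rps20 and Rps25. Rpl18 in mal 1 (80), Rpl22 in mal 1 (79.1) and Rps25 in prem 1 (77.0) stood highest there. Of these summits, that of Rpl18 lay inside the record of the neighbour Sphk2 and that of Rps25 inside the record of the neighbour Trappc4.

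By stage, 8 genes were called in both wt libraries and in neither prem library, namely Rpl7a, Rpl10a, Rpl13, Rpl15, Rpl18, Rpl22, Rpl26 and Rps15 (14.5%, against 6.40% of all protein-coding genes). Of these, Rpl26 and Rps15 were again called in both mal libraries (3.64% of the 55, against 1.54% of all genes). Neither prem library called 36 genes (65.5%, against 60.2% of all genes). At least 1 wt or mal library but neither prem library called 29 genes (52.7%, against 27.9%), and no ribosomal protein gene was called in prem alone (2.51% of all genes were). Both prem libraries called 3 genes (5.45%, against 12.8%), the same as in all 6 lists. Both mal libraries but neither wt library called Rpl5, Rpl8, Rpl11 and Rplp2 (7.27%, against 2.90%). Both wt libraries but neither mal library called Rpl13, Rpl15 and Rps2 (5.45%, against 1.79%).

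Ranks were compared between stages by limma on the normal score of each gene's rank within its library, over the 2142 protein-coding genes with a summit in all 6 lists. Of the ribosomal protein genes 3 entered this fit, and the genes that differed most in whether they were called could not enter it. No gene passed an adjusted p of 0.05 in any of the 3 comparisons, so that 0% of the 2142 genes and 0 of the 3 ribosomal protein genes were called, while 141 genes had an unadjusted p under 0.05 between prem and wt, 83 between mal and prem and 133 between mal and wt. On the log2 score in place of the rank, limma called 4 genes between prem and wt, none of them a ribosomal protein gene. Rpl24, ranked by the summit at its last start, changed by -1.87 normal-score units from wt to prem (SE 0.65, limma adjusted p = 0.737). It was the 1 gene of the 3 among the 141. The prem minus wt difference was -1.39 for Rps29 (SE 1.07, adjusted p = 0.860) and -0.37 for Rpl14 (SE 0.70, adjusted p = 0.960). The median over all 2142 genes in that comparison was -0.32. When genes without a summit were ranked lowest so that all 22359 genes and all 55 ribosomal protein genes entered, a choice made after seeing the data, limma again called 0 genes. Unadjusted p-values under 0.05 were then found for 3 of the 55 between prem and wt (Rpl7a, Rpl13 and Rpl15, all lower in prem), for 6 between mal and prem (Rpl5, Rpl8, Rpl26, Rpl38, Rplp2 and Rps15, all higher in mal) and for 6 between mal and wt (Rpl5, Rpl8 and Rplp2 higher and Rpl13, Rpl15 and Rps2 lower in mal). The lowest adjusted p among them was 0.177, for Rpl15 and Rplp2 between mal and wt. Over all genes, 1178, 925 and 1263 had an unadjusted p under 0.05 in these comparisons.

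Summits lay close to the starts in wt. The median distance from the start to the best summit was 126 and 129 bp in wt, 158 and 288 bp in prem, and 144 and 483.5 bp in mal. For other genes it was 160 and 183 bp, 189 and 249 bp, and 172 and 240 bp. In mal 2 the best summits of ribosomal protein genes were thus farther from the start than those of other genes, and their median position there was 215 bp upstream. In wt 1, wt 2 and mal 1 it was 38, 92 and 91 bp into the gene.

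**Figure D5:**
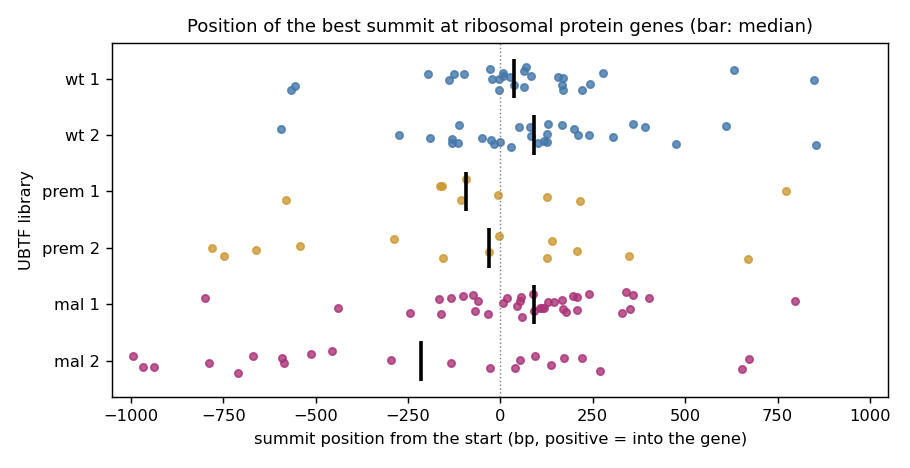
Position of the best summit within 1 kb of the start (horizontal axis, bp, positive into the gene) at the ribosomal protein genes of each UBTF library (vertical axis, with points spread for visibility); black bars are medians. Points cluster near the start in wt and mal 1 and are spread over the window in mal 2.

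Several starts are shared with a neighbour. For 11 of the 55 genes the start of another protein-coding gene lay within 1 kb, among them Rpl7a (Med22), Rpl13a (Flt3l), Rpl15 (Nkiras1), Rpl18 (Sphk2) and Rps25 (Trappc4). Of the 11, 7 and 5 were called in wt, 2 and 0 in prem, and 6 and 1 in mal. Of the other 44, 20 and 25 were called in wt (45.5 and 56.8%), 7 and 13 in prem (15.9 and 29.5%), and 31 and 21 in mal (70.5 and 47.7%). The order of the stages was the same without the shared starts. At Rps25 the summits in wt 1, prem 1 and mal 1 lay 567 to 798 bp upstream, inside the Trappc4 record, and at Rps21 the summit in wt 1 lay in the microRNA record AL663027.1. Summits also lay inside Flt3l at Rpl13a (wt 2, mal 1 and mal 2), Med22 at Rpl7a (wt 1 and wt 2) and Sphk2 at Rpl18 (wt 2 and mal 1). Others lay inside Nkiras1 at Rpl15 (wt 1), Wdr38 at Rpl35 (wt 2) and Gm20388 at Rpl13 (wt 1 and wt 2). Many ribosomal protein genes also host small nucleolar RNAs in their introns. The 21 that did were called at 38.1 and 47.6% in wt, 14.3 and 9.52% in prem, and 57.1 and 38.1% in mal, below the 34 that did not in each library (55.9, 58.8, 17.6, 32.4, 73.5 and 41.2%). Large-subunit genes were called more often than small-subunit genes in 5 of 6 libraries, with 50 and 62.5% against 47.8 and 43.5% in wt, 15.6 and 28.1% against 17.4 and 17.4% in prem, and 75 and 46.9% against 56.5 and 30.4% in mal. These subgroups were not tested.

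Other genes of the translation apparatus gave a scale for these shares. The 26 other cytosolic ribosomal protein genes in the annotation were called at 42.3 and 42.3% in wt, 26.9 and 23.1% in prem, and 65.4 and 34.6% in mal. Their order across libraries was like that of the 55, but in wt 2, prem 1 and mal 2 they lay on the other side of the background. The 77 mitochondrial ribosomal protein genes were called at 36.4 and 46.8%, 19.5 and 20.8%, and 59.7 and 20.8%, and the 20 cytosolic aminoacyl-tRNA synthetase genes at 50 and 45%, 25 and 25%, and 65 and 20.0%. The 39 translation factor genes were called at 64.1 and 76.9% in wt, 25.6 and 46.2% in prem, and 64.1 and 48.7% in mal, above the background in every library. Their median percentile was also higher than that of the ribosomal protein genes in every library, for example 64.3 against 25 in mal 2. The lower share in prem than in wt and in mal 1 was therefore found in each of these lists and was not particular to the 55 genes. The 1113 olfactory receptor genes, which are silent in B cells, gave 5.12 and 6.83% in wt, 2.43 and 10.1% in prem, and 4.40 and 10.7% in mal, and 107 pseudogenes of ribosomal protein genes gave 3.74 and 11.2%, 0.935 and 22.4%, and 13.1 and 28.0%. Both of these were highest in prem 2 and mal 2, the 2 longest lists. In prem 2 the ribosomal protein genes (23.6%) were called about as often as their pseudogenes (22.4%). Processed pseudogenes are near copies of the transcribed part of these genes, and under the default options that the study's methods state, bowtie2 places a read that matches several positions equally well at 1 of them, chosen at random. Whether such reads contributed to these shares was not tested.

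The ribosomal protein genes had starts of middling GC content. Within 100 bp of the start it had a median of 59.2% (quartiles 55.7 and 61.9) and that of other genes was 58.7% (49.8 and 67.7). Among other genes it moved strongly with UBTF calls, from a median of 49.8% for genes in no list to 71.1% for genes in all 6. Among ribosomal protein genes it was 56.7% for those in no list and 59.5% for those in 4 or more. In the GC range from 55 to 65%, 38 ribosomal protein genes were in a mean of 2.47 lists and other genes in 1.92. In the range above 65%, 6 ribosomal protein genes were in a mean of 3.0 lists and other genes in 3.67. Within the range from 55 to 65% the shares were 44.7 and 52.6% in wt (other genes 31.2 and 42.3%), 13.2 and 26.3% in prem (18 and 22.5%), and 68.4 and 42.1% in mal (47.4 and 30.4%). In this range, which holds 38 of the 55, the ribosomal protein genes lay above other genes in prem 2 as well, and below them in prem 1. The other ranges hold few of them and did not all run the same way. From 45 to 55% GC (10 genes), 20% were called in prem 1 (other genes 10.5%) and 10% in prem 2 (21.7%), and above 65% GC (6 genes), 33.3% in prem 1 (38.8%), 16.7% in prem 2 (52.1%), 50% in wt 2 (73.8%) and 33.3% in mal 2 (62.7%).

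RefSeq promoters of the GRCm38.p6 build, 250 bases before to 50 after the start, were matched to mm9 by their sequence for 46 of the 55 genes, which gave 54 promoters. A run of at least 8 pyrimidines within 20 bases of the start, the hallmark of ribosomal protein promoters, was found in 50% of these and in 20.6% of the 18137 promoters of other genes. The window from 80 bases before to 20 after the start is shown, with this run in capitals, for Rpl14 and Rps10, called in 6 and 5 lists, and for Rpl4, Rps12 and Rps18, called in none, because genes at both ends of the range had the run.
Rpl14: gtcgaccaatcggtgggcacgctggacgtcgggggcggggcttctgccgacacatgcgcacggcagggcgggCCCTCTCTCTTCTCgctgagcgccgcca
Rps10: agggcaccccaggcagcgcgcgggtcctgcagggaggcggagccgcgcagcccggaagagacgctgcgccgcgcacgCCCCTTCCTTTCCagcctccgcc
Rpl4: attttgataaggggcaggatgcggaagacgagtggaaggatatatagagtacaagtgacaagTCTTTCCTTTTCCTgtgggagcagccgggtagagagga
Rps12: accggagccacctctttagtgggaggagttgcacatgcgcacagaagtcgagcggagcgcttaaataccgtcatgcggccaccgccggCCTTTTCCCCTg
Rps18: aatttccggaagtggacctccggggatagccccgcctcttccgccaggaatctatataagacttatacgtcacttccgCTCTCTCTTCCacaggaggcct
In mm9 these windows are chr9:120480554-120480653 (plus) for Rpl14, chr17:27772170-27772269 (minus) for Rps10, chr9:64021114-64021213 (plus) for Rpl4, chr10:23506996-23507095 (minus) for Rps12 and chr17:34092591-34092690 (minus) for Rps18. Promoters with the run belonged to genes in a mean of 2.19 lists and those without it to genes in 2.85.

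Other motifs were searched in the 300-base promoters on both strands, except TATAAA, which was searched on the sense strand from 50 to 15 bases before the start. TATAAA was found in 0 of 54 promoters of ribosomal protein genes and in 2.70% of the others. CCGGAAG, the core of ETS-factor sites, was found in 37.0% against 11.5%, and AAGATGG, the core of YY1 sites, in 13.0% against 6.28%. CACGTG, the E-box that MYC with MAX can bind, was found in 14.8% against 8.12%. Its 8 promoters belonged to genes in a mean of 3.75 lists, against 2.30 for those without it, again over promoters and not over separate genes. CCAAT was found in 33.3% against 38.2%, and GGGCGG, the core of SP1 sites, in 57.4% against 47.8%. No motif contains another of the list, but CCGGAAG read on the other strand can overlap the pyrimidine run. A match is a description of the letters, and no binding of these factors was measured.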

How the data were processed

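UBTF ChIP-seq of sorted pre-B cells was represented by 6 deposited peak lists. According to the methods, the authors mapped 50-bp paired reads with bowtie2 to mm9 joined to 1 rDNA copy, removed duplicates with Picard MarkDuplicates and called peaks in each library with SPP, all with default options. The submitters' processing notes also name CASAVA 1.8.2 and Picard 1.110. The lists precede the authors' test of reproducibility between replicates. In the deposited lists the signal column is a score of the peak caller with no common scale between libraries, the q-value column is a false discovery rate (FDR) on a linear scale, and the p-value column is a placeholder. The summit offset was added to the region's start. The 35 to 87 peaks on rDNA in each list were left out. No summit lay past an mm9 chromosome end. The lists give no counts, so depth is unknown and its effect on the number of peaks was not tested.

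A gene was called when a summit lay within 1 kb of a protein-coding transcript start (GENCODE M1), and took its best-scored summit. Genes with a summit were ranked within each library, and normal scores of these ranks were fitted with limma 3.58.1 (R 4.3.3) over genes called in all 6 lists, with Benjamini-Hochberg adjustment over all genes fitted. On simulated data with 2142 genes, of which 200 were shifted between mal and wt, shifts of 1 and 2 normal-score units were recovered in 0% and shifts of 3 in 70% (2.78% of calls false). Python 3.11.15, pandas 2.3.3, numpy 2.4.6 and scipy 1.17.1 were used for the other steps. The members and comparison lists were chosen with earlier results of these data known. Members were named when called in all 6 lists, in 2 or fewer, or for a known role (Rplp0, Rplp1, Rplp2, Rpl5, Rpl11, Rps6, Rps19, Rpsa, Rps3 and Rpl3), and others were named after their values were seen. Rpl41, of the other cytosolic ribosomal protein genes, was not matched in the annotation. The alternatives were other windows (500 bp, 2 kb), starts, FDR (at most 0.001), list lengths, scales, filters, a term for the narrow and wide sets, a replicate block and leaving out each library. The sequence at the Rps29 summit is not reported here.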

Additional observations from a re-analysis of the deposited data

How the results depend on the processing

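Of 180 values recomputed under an alternative, 16 moved and 2 reversed. Of the other 162, 65 were shares or percentiles that moved by less than the spread between replicates, and 97 were limma counts of 0 that stayed at 0. Those counts say nothing about stability, since simulated shifts of up to 2 units were not recovered. Among the 65, the values from leaving out 1 of 2 libraries say nothing either, because a mean then moves by less than the SD by construction. The FDR limit of 0.001 could not move a wt value, since the highest FDR in wt was 0.000534. Both reversals came with lists of equal length (the best 78074 peaks of each). There the share of ribosomal protein genes minus that of other genes was -5.81 points in wt and -6.38 in mal, with -4.36 in prem, the shares were 17.3% in wt, 10.0% in prem and 9.09% in mal, and the median percentile in wt was 47.9. No ribosomal protein gene was left in the limma fit there, so that it gave no value. A 500-bp window gave 14.5% in prem and a 2-kb window 26.4%, with an excess of 8.01 points in wt. The start of the gene record alone gave 47.3% in wt. An FDR of at most 0.001 gave 13.6% in prem and -9.30 points against other genes. Ranking among all peaks gave median percentiles of 37.2 in wt and 46.6 in mal. Without the genes that share a start region, an alternative chosen after seeing the data, the difference in prem was -3.60 points. The cause of these moves was not tested. Between prem and wt, limma called 4 genes on the log2 score and 1 with a replicate block, none of them a ribosomal protein gene. Deviations of same-numbered libraries correlated at 0.0143 (wt and prem), 0.0558 (wt and mal) and 0.277 (prem and mal), so the numbers were not taken as pairs, and the replicate block changed no other call. Leaving out 1 library at a time, the share ranged from 49.1 to 54.5% in wt, 16.4 to 23.6% in prem and 40 to 67.3% in mal. The difference from other genes ranged from 10.6 to 13.8, -7.70 to -4.96 and 1.58 to 21.2 points, so without mal 1 the excess in mal was 1.58. The median percentile ranged from 26.1 to 33.3, 13.3 to 48.3 and 25 to 37.5, and limma called 0 genes each time.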

Other observations

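The narrow and wide sets divide the stages unevenly, input libraries were not analysed here, and the lists hold no depth. A share counts calls of unequal strength. Each stage had 2 libraries, and in data simulated for the comparison of mal with wt shifts of up to 2 normal-score units were not recovered, so a comparison without calls leaves large changes of rank undetected.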
